A study of Homo sapiens with 9 samples.

Results

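The 10 genes described here encode the interferon-inducible machinery that cuts proteins into peptides and loads them onto MHC class I molecules. They were taken by symbol (Psmb8, Psmb9, Psmb10, Psme1, Psme2, Tap1, Tap2, Tapbp, Erap1 and Nlrc5) from the 17369 genes with RNA-seq values in 9 mouse thyroid tumors. All 10 were among the 10263 genes tested, which had at least 1 FPKM (fragments scaled by the length of the transcript and the size of the library) in at least 3 tumors. Each tumor grew for 14 days after 100000 cells were injected into the thyroid gland of a 6-week-old female mouse, and RNA was taken from the whole tumor. The cells were TBP3743, a line from a mouse anaplastic thyroid cancer of B6129SF1 background that carries Braf V600E and lacks Trp53 in thyroid cells. The original/B6129SF1 group had the original cells in B6129SF1 hosts, the adapted/B6129SF1 group had adapted cells in B6129SF1 hosts, and the adapted/B6 group had adapted cells in C57BL/6 hosts, with 3 tumors in each. Adapted cells had been carried through 3 rounds of growth under the skin of C57BL/6 mice, with cultures started from the largest tumors of each round, so that adaptation is represented by a single derived line. The 2 host strains came from different suppliers, and strain and supplier cannot be told apart. The labels give the human species for these samples, but the hosts, the cells, the genome used by the authors and the gene symbols were those of the mouse.

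MHC class I molecules show short peptides from a cell's own proteins to CD8+ T cells. The proteasome makes the peptides, the TAP transporter carries them into the endoplasmic reticulum (ER), aminopeptidases trim them, and a loading complex of tapasin, calreticulin and the disulfide isomerase ERp57 fits them into the class I groove. Interferon-gamma is known to exchange the catalytic subunits of the proteasome for the immunoproteasome forms and to raise TAP, tapasin and the transactivator Nlrc5, whereas the general ER chaperones are made in nearly all cells without it.

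Across the series the summed FPKM per tumor ranged from 457983 to 540514, and the depth relative to original/B6129SF1 replicate 1, read approximately from the steps between low values, ranged from 0.966 to 1.37. Skeletal muscle genes held 6.66% of the summed FPKM of adapted/B6129SF1 replicate 3 and 1.13% of that of adapted/B6 replicate 1, with no more than 0.137% elsewhere, so results are also given without these 2 tumors. The labels call the cells epithelial. Krt8 and Krt18 were high in every tumor, with Krt8 between 153 and 615 FPKM, whereas Cdh1 did not exceed 4.48 FPKM and Epcam did not exceed 2.49 FPKM. Of the thyroid markers, Nkx2-1 was between 23.5 and 44.5 FPKM, while Tshr, Slc5a5 and Foxe1 stayed below 1 FPKM in every tumor. Because the RNA came from whole tumors, fewer cells of a type and less RNA per cell cannot be told apart in any value below.

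The inducible genes were higher in both groups of adapted tumors than in original/B6129SF1 tumors, and the ER chaperones were not. No tumor had original cells in C57BL/6 hosts, so cells and host cannot be told apart in adapted/B6 against original/B6129SF1. In adapted/B6129SF1 against original/B6129SF1 tumors, 6 of the 10 genes were DEGs (adjusted p under 0.05 and a log2 fold change beyond 1) and all 6 were higher, against 2.36% of all genes tested that were DEGs in that direction. In adapted/B6 against original/B6129SF1 tumors, 7 of the 10 were higher DEGs, against 2.42% of all genes. By adjusted p alone (limma), 8 and 10 of the 10 genes rose, against 4.37% and 3.99% of all genes. The median log2 fold change over the 10 genes was 1.14 in adapted/B6129SF1 and 1.46 in adapted/B6, beside a median of -0.03 over all genes in both. These 2 comparisons share the original/B6129SF1 tumors and are therefore not independent of each other.

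**Figure D1:**
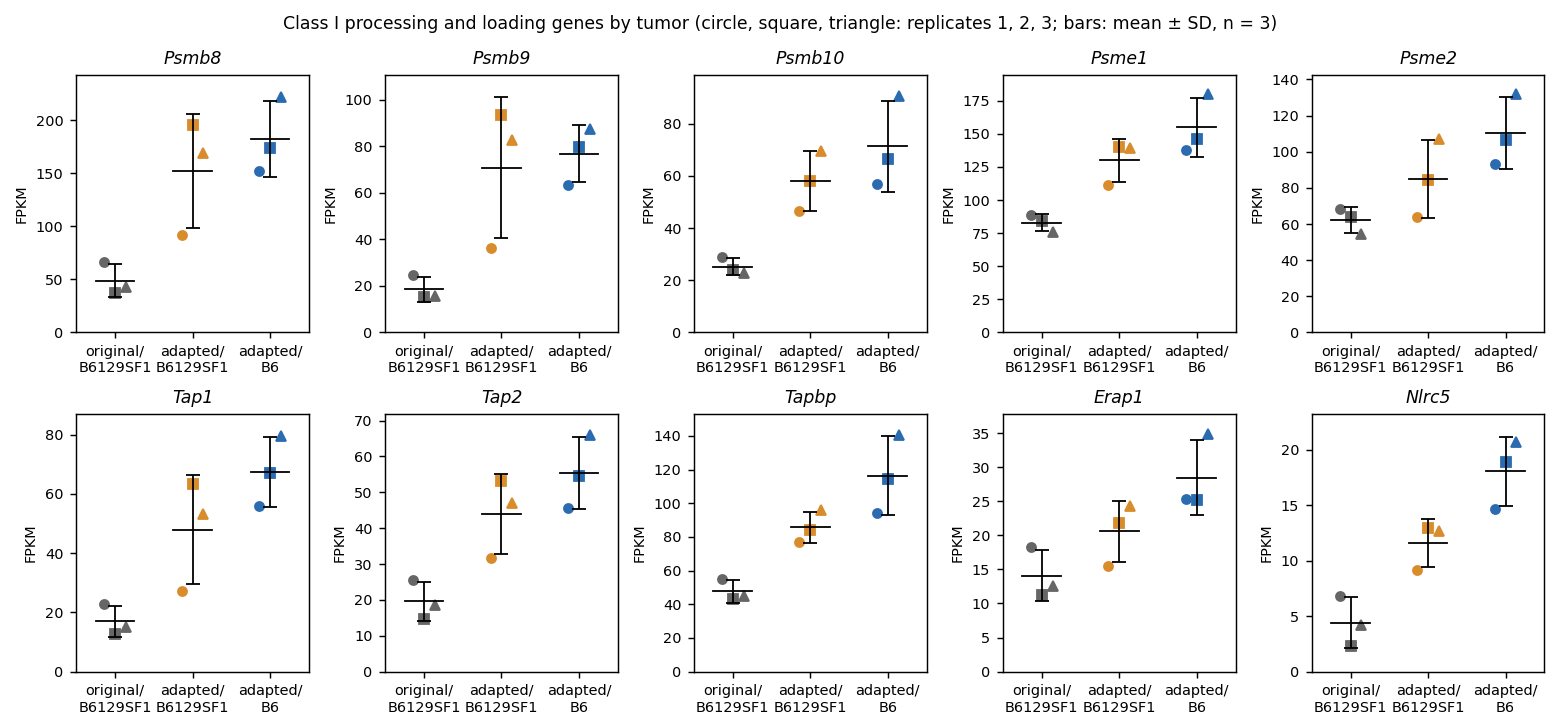
FPKM (linear axes from 0) of each of the 10 genes in each of the 9 tumors, with 1 symbol per tumor and black bars for the mean ± SD of the 3 tumors of a group. For 8 genes every adapted/B6129SF1 tumor lies above every original/B6129SF1 tumor, and for all 10 every adapted/B6 tumor does, as for 13.6% and 14.9% of all genes tested.

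Psmb8, Psmb9 and Psmb10 encode the 3 catalytic subunits that take the place of the constitutive ones in the immunoproteasome. Psmb8 was at 66.1, 37.3 and 42.4 FPKM in the original/B6129SF1 tumors, 91.9, 195 and 169 FPKM in adapted/B6129SF1, and 152, 174 and 222 FPKM in adapted/B6. Psmb9 was at 24.6, 15.2 and 15.6 FPKM in original/B6129SF1, 36.5, 93.4 and 82.8 FPKM in adapted/B6129SF1, and 63.5, 79.9 and 87.4 FPKM in adapted/B6. Psmb10 was at 28.8, 24.0 and 22.8 FPKM in original/B6129SF1, 46.4, 58.1 and 69.6 FPKM in adapted/B6129SF1, and 56.7, 66.5 and 90.8 FPKM in adapted/B6. No tumor of adapted cells overlapped the original/B6129SF1 range for these 3 genes, as for 13.6% of all genes in adapted/B6129SF1 and 14.9% in adapted/B6 that lay wholly higher, and adapted/B6129SF1 replicate 1 was the lowest of the adapted tumors for each. On the log2(FPKM + 1) scale, Psmb9 rose by 1.81 (SE 0.34, adjusted p = 0.0176, limma) in adapted/B6129SF1, a 3.84-fold ratio of means, and Psmb8 rose by 1.60 (SE 0.31, adjusted p = 0.0194). Psmb10 rose by 1.16 (SE 0.20, adjusted p = 0.0129), a smaller change with a smaller spread. In adapted/B6 the log2 fold changes were 2.02 for Psmb9, 1.91 for Psmb8 and 1.44 for Psmb10, with adjusted p of 0.0109, 0.00905 and 0.00535 (limma). Ranked by log2 fold change among all 10263 genes, Psmb9 stood at place 121 in adapted/B6129SF1 and place 61 in adapted/B6.

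Psme1 and Psme2 encode the alpha and beta subunits of PA28, a ring that caps the proteasome core and speeds the release of peptides. Psme1 was at 89.1, 84.3 and 75.8 FPKM in original/B6129SF1, 111, 139.8 and 139 FPKM in adapted/B6129SF1, and 138, 146 and 180.4 FPKM in adapted/B6. Psme2 was at 68.5, 63.9 and 54.2 FPKM in original/B6129SF1, 63.7, 84.4 and 107 FPKM in adapted/B6129SF1, and 93.0, 106 and 132 FPKM in adapted/B6. The Psme1 groups did not overlap the original/B6129SF1 range, but for Psme2 adapted/B6129SF1 replicate 1 lay inside it. Psme1 rose by 0.64 (SE 0.14, adjusted p = 0.027, limma) in adapted/B6129SF1 and by 0.89 (adjusted p = 0.00772, limma) in adapted/B6. For Psme2 the log2 fold change was 0.42 (adjusted p = 0.219, limma) in adapted/B6129SF1, which did not pass, and 0.81 (adjusted p = 0.0473, limma) in adapted/B6, which did. Both were the most abundant of the 10 genes in original/B6129SF1 tumors per transcript length, with means of 83.0 ± 6.74 and 62.2 ± 7.29 FPKM (SD, n = 3), and they had 2 of the 3 smallest log2 fold changes in adapted/B6129SF1.

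Tap1 and Tap2 encode the 2 chains of the transporter that moves peptides from the cytosol into the ER. Tap1 was at 22.9, 12.8 and 15.2 FPKM in original/B6129SF1, 27.4, 63.2 and 53.3 FPKM in adapted/B6129SF1, and 55.8, 67.0 and 79.5 FPKM in adapted/B6. Tap2 was at 25.4, 14.8 and 18.6 FPKM in original/B6129SF1, 31.7, 53.1 and 47.1 FPKM in adapted/B6129SF1, and 45.7, 54.6 and 65.9 FPKM in adapted/B6. Both were higher in every tumor of adapted cells than in any original/B6129SF1 tumor, although adapted/B6129SF1 replicate 1 lay close to original/B6129SF1 replicate 1. Tap1 rose by 1.40 (SE 0.31, adjusted p = 0.0309, limma) in adapted/B6129SF1 and Tap2 by 1.13 (SE 0.24, adjusted p = 0.0268, limma). In adapted/B6 the log2 fold changes were 1.96 and 1.47, with adjusted p of 0.00928 and 0.0103 (limma), ratios of means of 3.98 and 2.82.

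Tapbp encodes tapasin, which bridges TAP and the empty class I molecule and selects well-fitting peptides. It was at 55.3, 43.0 and 44.7 FPKM in original/B6129SF1, 77.0, 84.1 and 95.7 FPKM in adapted/B6129SF1, and 94.1, 114 and 141 FPKM in adapted/B6. All 6 tumors of adapted cells lay above the highest original/B6129SF1 tumor. Tapbp rose by 0.84 (SE 0.16, adjusted p = 0.0206, limma) in adapted/B6129SF1, under the fold threshold for a DEG, and by 1.26 (adjusted p = 0.00437, limma) in adapted/B6, which passed it.

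Erap1 encodes the ER aminopeptidase that trims peptides to the length of the class I groove. It was at 18.3, 11.2 and 12.6 FPKM in original/B6129SF1, 15.5, 21.9 and 24.3 FPKM in adapted/B6129SF1, and 25.4, 25.1 and 34.8 FPKM in adapted/B6. Adapted/B6129SF1 replicate 1 fell within the original/B6129SF1 range, and the adapted/B6 tumors were above all others. The log2 fold change of Erap1 was 0.53 (SE 0.22, adjusted p = 0.172, limma) in adapted/B6129SF1 and 0.98 (adjusted p = 0.0356, limma) in adapted/B6, so it rose in the latter group by adjusted p without being a DEG.

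Nlrc5 encodes the transactivator that binds class I promoters and promotes transcription of class I genes and several of their partners. It was the least abundant of the 10, at 6.79, 2.29 and 4.20 FPKM in original/B6129SF1, 9.14, 12.9 and 12.7 FPKM in adapted/B6129SF1, and 14.7, 18.9 and 20.7 FPKM in adapted/B6. The 3 groups did not overlap each other, in the order original/B6129SF1, adapted/B6129SF1 and adapted/B6. Nlrc5 rose by 1.29 (SE 0.29, adjusted p = 0.0319, limma) in adapted/B6129SF1 and by 1.89 (adjusted p = 0.00767, limma) in adapted/B6.

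Without original/B6129SF1 replicate 3, 0 of the 10 genes were DEGs in adapted/B6129SF1, and without original/B6129SF1 replicate 2, adapted/B6129SF1 replicate 2 or adapted/B6129SF1 replicate 3 in turn, 2 were (Psmb9 and Psmb10 each time). Leaving out both tumors with muscle RNA left 1, Psmb10. In adapted/B6 the number of DEGs was 3 without adapted/B6 replicate 3 (Psmb10, Tapbp and Nlrc5), between 6 and 8 without any other single tumor, and 7 without the tumors with muscle RNA. By adjusted p alone, Psme2 in adapted/B6 was not called without any 1 of the 3 original/B6129SF1 tumors, adapted/B6129SF1 replicate 2 or any 1 of the 3 adapted/B6 tumors, and Erap1 was lost in the same cases except without original/B6129SF1 replicate 1. Fits that leave out a tumor have fewer samples for every gene, and all 10 log2 fold changes against original/B6129SF1 stayed positive in each of them.

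**Figure D2:**
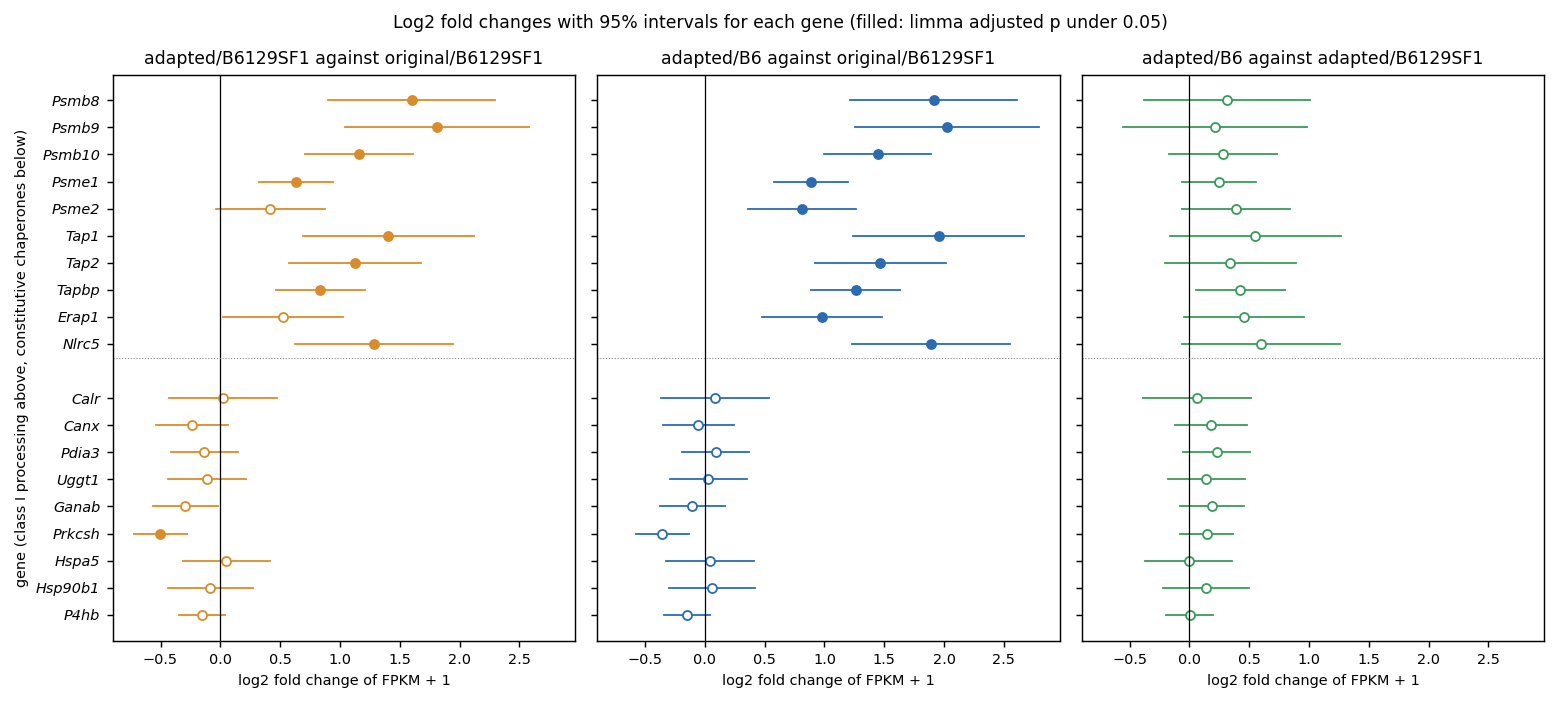
Log2 fold changes on the log2(FPKM + 1) scale with 95% confidence intervals from limma for the 10 genes and for the 9 ER chaperones, in the 3 comparisons, with filled points for an adjusted p under 0.05. The inducible genes lie between 0.42 and 2.02 against original/B6129SF1, and the chaperones lie between -0.50 and 0.09.

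The 9 constitutive ER chaperones and folding enzymes listed were Calr, Canx, Pdia3, Uggt1, Ganab, Prkcsh, Hspa5, Hsp90b1 and P4hb. Of these, 0 were DEGs in any comparison by limma, where higher DEGs made up 2.36% and lower DEGs 0.857% of all genes in adapted/B6129SF1 against original/B6129SF1, and 2.42% and 0.672% in adapted/B6 against original/B6129SF1. At an unadjusted p under 0.05 the numbers were 2, 1 and 0 of 9 in adapted/B6129SF1 against original/B6129SF1, adapted/B6 against original/B6129SF1 and adapted/B6 against adapted/B6129SF1, with Prkcsh and Ganab in the first and Prkcsh in the second, beside 26.5%, 24.4% and 6.27% of all genes. Their median log2 fold changes were -0.14, 0.03 and 0.14 in that order.

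Calr encodes calreticulin, the lectin-like chaperone of the loading complex. It was at 408, 229.6 and 376 FPKM in original/B6129SF1, 302, 358 and 342 FPKM in adapted/B6129SF1, and 358, 336 and 351 FPKM in adapted/B6. The 6 adapted values lay inside the range of the original/B6129SF1 tumors, which was set by the low replicate 2 and the high replicate 1. The log2 fold change of Calr was 0.02 (95% confidence interval -0.43 to 0.48, adjusted p = 0.954, limma) in adapted/B6129SF1 and 0.09 (-0.37 to 0.54, adjusted p = 0.829, limma) in adapted/B6, so that changes of the size seen for Psmb8 or Tap1 lay outside both intervals. Canx, which encodes the membrane-bound counterpart calnexin, was at 137 ± 22.7, 115 ± 9.08 and 131 ± 9.17 FPKM in the 3 groups (SD, n = 3), with log2 fold changes of -0.24 and -0.05 that did not pass. Pdia3, which encodes ERp57, was at 293 ± 34.9, 267 ± 32.5 and 311 ± 3.59 FPKM, with log2 fold changes of -0.14 and 0.09 that also did not pass. In each case the adapted means were within 1 SD of the original/B6129SF1 mean. The gene of tapasin, which works in the loading complex with calreticulin and ERp57, rose.

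Prkcsh was the exception. It encodes the beta subunit of glucosidase II, which trims glucose from new glycoproteins. It was at 86.7, 74.1 and 78.6 FPKM in original/B6129SF1, 56.2, 61.0 and 51.1 FPKM in adapted/B6129SF1, and 64.7, 60.2 and 61.0 FPKM in adapted/B6. Both adapted groups lay below the original/B6129SF1 range, as for 15.9% of all genes in adapted/B6129SF1 and 17.9% in adapted/B6. Prkcsh fell by 0.50 (SE 0.10, adjusted p = 0.0201, limma) on the log2 scale in adapted/B6129SF1, where 3.92% of all genes fell by adjusted p alone, and its log2 fold change was -0.36 (adjusted p = 0.0618, limma) in adapted/B6. The call of Prkcsh was lost without original/B6129SF1 replicate 1, original/B6129SF1 replicate 3 or adapted/B6129SF1 replicate 3, without both tumors with muscle RNA, and with only the groups compared (adjusted p up to 0.0727, limma). Its alpha-subunit partner Ganab had a log2 fold change of -0.29 (adjusted p = 0.16, limma) in adapted/B6129SF1.

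**Figure D3:**
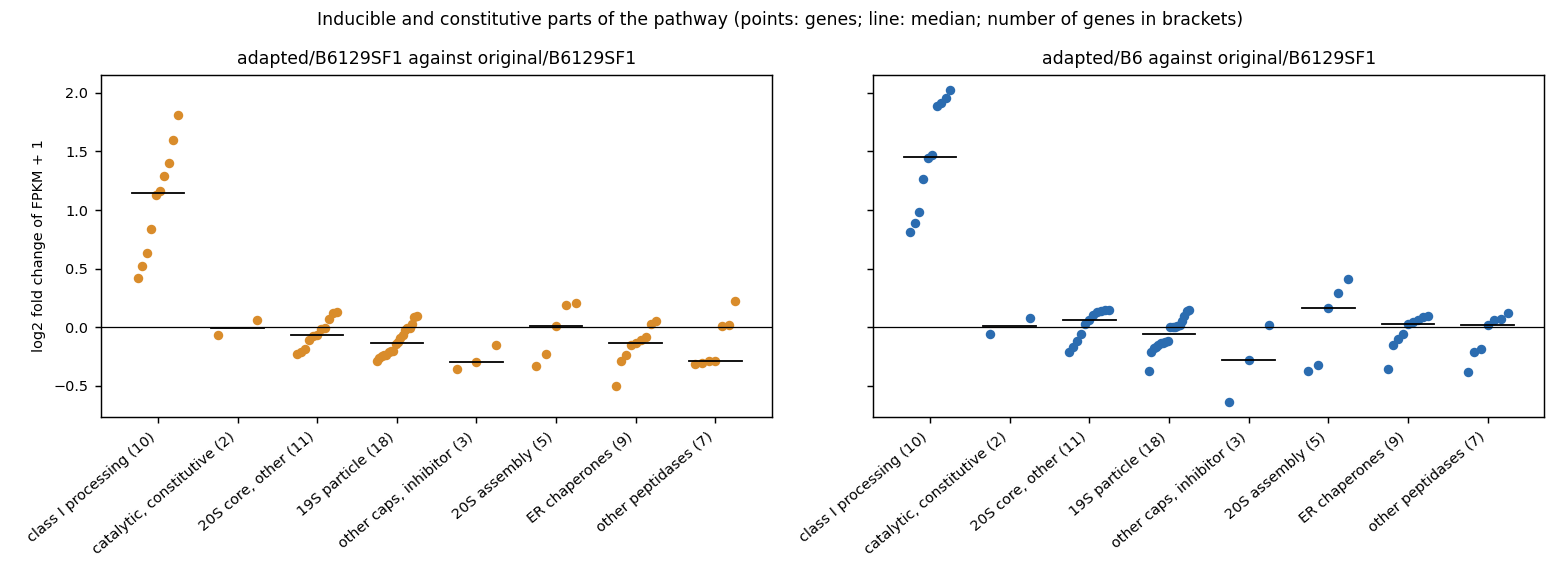
Log2 fold change of each gene in 8 lists of the pathway, namely the 10 genes, the constitutive proteasome lists, the ER chaperones and the other peptidases, in adapted/B6129SF1 and adapted/B6 against original/B6129SF1, with 1 point per gene, a line at the median and the number of genes in brackets. The 10 inducible genes have medians of 1.14 and 1.46, and the medians of the other 7 lists plotted lie between -0.30 and 0.16.

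The remainder of the proteasome did not follow its inducible subunits. Psmb6 and Psmb7, the constitutive catalytic subunits that Psmb9 and Psmb10 replace, were at 154 ± 11.0, 148 ± 25.4 and 148 ± 7.66 FPKM and at 160.1 ± 17.3, 169 ± 37.7 and 169 ± 7.27 FPKM in original/B6129SF1, adapted/B6129SF1 and adapted/B6 (SD, n = 3). Neither passed limma's test in any comparison, at an adjusted p or at an unadjusted p under 0.05, with log2 fold changes between -0.07 and 0.08 against original/B6129SF1. Of the other 11 subunits of the 20S core, 0 passed at either level in any of the 3 comparisons, with medians of -0.06 and 0.06 against original/B6129SF1. Of the 18 subunits of the 19S particle, which unfolds tagged proteins for the core, 0 passed after adjustment, and 3 (adapted/B6129SF1) and 1 (adapted/B6) had an unadjusted p under 0.05, beside 26.5% and 24.4% of all genes, all with negative fold changes among the 19S subunits. Their medians were -0.13 and -0.06.

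Other caps of the core moved the opposite way from PA28 alpha and beta or did not pass. Psme4, which encodes the activator PA200, was at 44.3, 49.2 and 40.9 FPKM in original/B6129SF1, 33.9, 32.6 and 37.5 FPKM in adapted/B6129SF1, and 27.4, 30.2 and 27.7 FPKM in adapted/B6. The 3 groups did not overlap, in descending order, and 5.42% of all genes lay wholly lower in adapted/B6 than in adapted/B6129SF1. Psme4 fell by 0.64 (adjusted p = 0.00772, limma) in adapted/B6, where 2.77% of all genes fell by adjusted p alone, and its log2 fold change was -0.36 (adjusted p = 0.0593, limma) in adapted/B6129SF1. Psme3, the nuclear PA28 gamma subunit, was at 51.7 ± 8.68, 41.5 ± 2.02 and 42.3 ± 7.59 FPKM (SD, n = 3), and its differences of -0.30 and -0.28 from original/B6129SF1 missed the threshold (adjusted p = 0.273 and 0.32, limma). Of the 5 assembly factors of the core, Psmg2 alone passed after adjustment, with a rise of 0.41 (adjusted p = 0.0464, limma) in adapted/B6, below the size of any inducible subunit there. That call was lost under 10 of 16 alternatives in processing or in the tumors used, among them leaving out any 1 original/B6129SF1 tumor or replicate 2 or 3 of either adapted group (adjusted p up to 0.168, limma). None of 7 other peptidases that can trim antigenic peptides (Lnpep, Tpp2, Npepps, Thop1, Nrd1, Blmh and Lap3) passed after adjustment in limma in any of the 3 comparisons, and those with an unadjusted p under 0.05 were Tpp2 and Npepps in adapted/B6129SF1 and Npepps in adapted/B6, with negative fold changes. Of all genes, 26.5% and 24.4% had an unadjusted p under 0.05 there.

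Tapbpl, which encodes the tapasin-related peptide editor TAPBPR, moved with tapasin. It was at 8.23, 6.06 and 6.92 FPKM in original/B6129SF1, 11.1, 15.2 and 15.9 FPKM in adapted/B6129SF1, and 16.0, 15.4 and 22.3 FPKM in adapted/B6. The adapted tumors did not overlap the original/B6129SF1 tumors. Tapbpl rose by 0.90 (SE 0.18, adjusted p = 0.0229, limma) in adapted/B6129SF1 and by 1.22 (adjusted p = 0.00713, limma) in adapted/B6. The class I heavy chain genes H2-K1 and H2-D1 and the light chain gene B2m rose in both comparisons too, by 1.31, 0.98 and 0.93 in adapted/B6129SF1 and by 1.49, 1.12 and 1.26 in adapted/B6 (adjusted p between 0.00748 and 0.0245, limma). By adjusted p alone, 4.37% of all genes rose in adapted/B6129SF1 and 3.99% in adapted/B6. Of 16 alternatives in processing or tumors used, the adapted/B6129SF1 call was lost under 8 for B2m, 5 for Tapbpl, 3 for H2-K1 and 1 for H2-D1. In adapted/B6 it was lost under 2 for H2-K1, 1 for B2m and 0 for Tapbpl and H2-D1. H2-K1 and H2-D1 are close in sequence, so reads may have been split between them.

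Ratios within a tumor do not depend on how tumors were scaled to each other. The ratio of Psmb9 to Psmb6 FPKM was 0.152, 0.0952 and 0.110 in original/B6129SF1, 0.291, 0.651 and 0.472 in adapted/B6129SF1, and 0.437, 0.564 and 0.559 in adapted/B6. The ratio of Psmb10 to Psmb7 was 0.162, 0.151 and 0.159 in original/B6129SF1, 0.352, 0.345 and 0.336 in adapted/B6129SF1, and 0.341, 0.407 and 0.512 in adapted/B6. Neither ratio overlapped between the original/B6129SF1 tumors and the tumors of adapted cells, and Psmb10 to Psmb7 varied little among the 3 adapted/B6129SF1 tumors (0.345 ± 0.00814, SD, n = 3), in which Psmb9 to Psmb6 varied much more (0.471 ± 0.180).

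On the log2 scale the ratio of Psmb9 to Psmb6 was higher by 1.94 in adapted/B6129SF1 and by 2.15 in adapted/B6 than in original/B6129SF1, and that of Psmb10 to Psmb7 by 1.13 and 1.40. Each of these 4 differences had p = 0.1 in an exact two-sided permutation test, the smallest p that 3 tumors against 3 can give, and 0.15 after adjustment over the 6 ratio tests. Between adapted/B6 and adapted/B6129SF1 the differences were 0.21 (exact permutation p = 0.7) and 0.27 (exact permutation p = 0.3), with overlapping groups.

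**Figure D4:**
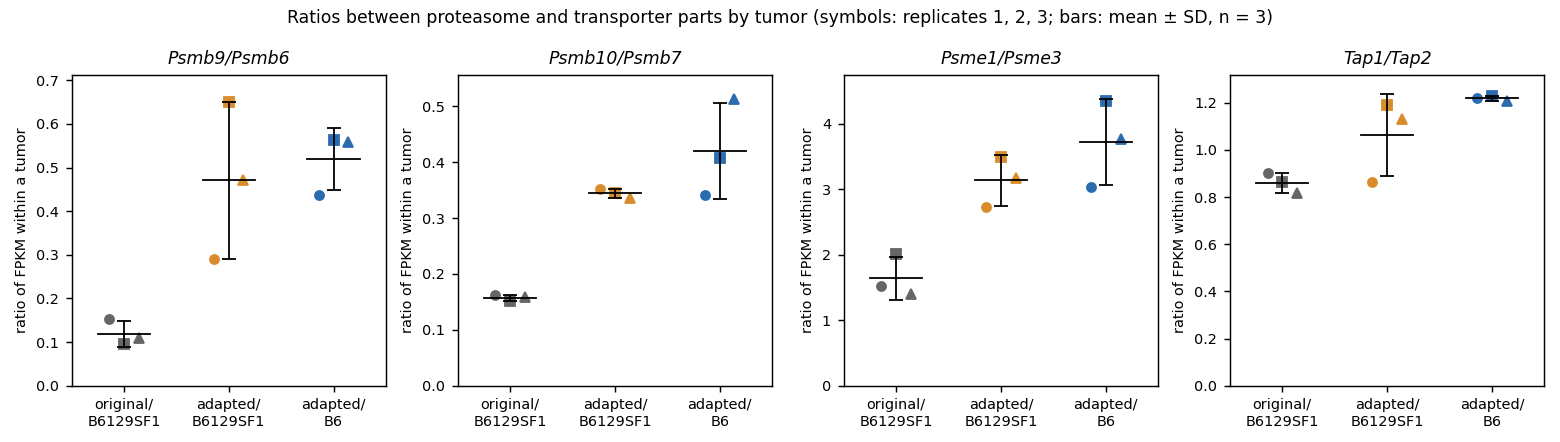
Ratios of FPKM within each tumor for 4 pairs of genes (linear axes from 0), with 1 symbol per tumor and black bars for the mean ± SD of the 3 tumors of a group. The 6 tumors of adapted cells lie above the 3 original/B6129SF1 tumors for Psmb9 to Psmb6, Psmb10 to Psmb7 and Psme1 to Psme3, and adapted/B6129SF1 replicate 1 lies with the original/B6129SF1 tumors for Tap1 to Tap2.

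Ratios between inducible genes are given as descriptions, with no test. Psmb8 to Psmb9 was 2.62 ± 0.141, 2.22 ± 0.264 and 2.37 ± 0.181 in original/B6129SF1, adapted/B6129SF1 and adapted/B6 (SD, n = 3). Psme1 to Psme2 was 1.34 ± 0.0514, 1.57 ± 0.234 and 1.41 ± 0.0653, and the groups overlapped for both ratios. Tap1 to Tap2 was 0.901, 0.864 and 0.816 in original/B6129SF1, 0.864, 1.19 and 1.13 in adapted/B6129SF1, and 1.22, 1.23 and 1.21 in adapted/B6, so that the adapted/B6 tumors lay above all others and adapted/B6129SF1 replicate 1 lay with the original/B6129SF1 tumors. Psmb9 to Psmb10 was 0.723 ± 0.117, 1.19 ± 0.412 and 1.09 ± 0.121, and Tapbp to Tap1 was 2.91 ± 0.476, 1.98 ± 0.758 and 1.72 ± 0.0446, so that the adapted/B6 tumors lay wholly above the original/B6129SF1 tumors for the former and wholly below them for the latter. The ratio of the tapasin gene Tapbp to Calr was 0.147 ± 0.0356 in original/B6129SF1, 0.257 ± 0.0226 in adapted/B6129SF1 and 0.335 ± 0.0694 in adapted/B6.

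The comparison of adapted/B6 with adapted/B6129SF1 tumors asks whether the same adapted cells gave a different level in the other host. All 10 genes had a higher mean in adapted/B6, where 51.5% of all genes tested did, with log2 fold changes from 0.21 (Psmb9) to 0.60 (Nlrc5) and a median of 0.37. By limma, 0 of the 10 were DEGs, where 0% of all genes were higher DEGs and 0.0292% were lower DEGs, and 1 of the 10 (Tapbp) had an unadjusted p under 0.05, which 6.27% of all genes had. For Tapbp the difference was 0.43 (95% confidence interval 0.05 to 0.80, adjusted p = 0.777, limma).

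Erap1 and Nlrc5 did not overlap between these groups, against 6.32% of all genes whose adapted/B6 tumors all lay higher. The difference of Erap1 was 0.46 (95% confidence interval -0.05 to 0.96, adjusted p = 0.814, limma) and that of Nlrc5 was 0.60 (-0.06 to 1.26, adjusted p = 0.814, limma). The intervals of Psmb8 (-0.38 to 1.01), Psmb9 (-0.56 to 0.98) and Tap1 (-0.16 to 1.27) were wide, so that neither no difference nor a difference of the size of a DEG was outside those of Psmb8 and Tap1. Without adapted/B6129SF1 replicate 1 the log2 fold change of Psmb9 became -0.20 and that of Psmb8 became -0.0094, and the median over the 10 genes became 0.17.

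Several tumors held the same place for most genes of the set. Adapted/B6 replicate 3 was highest of the 9 tumors for 9 of the 10 genes, the exception being Psmb9, which was highest in adapted/B6129SF1 replicate 2. Adapted/B6129SF1 replicate 1 was lowest of its group for all 10 genes, and original/B6129SF1 replicate 1 was highest of its group for all 10. Relative to the original/B6129SF1 mean, the average log2 difference over the 10 genes was 0.34, -0.23 and -0.11 in original/B6129SF1, 0.65, 1.29 and 1.30 in adapted/B6129SF1, and 1.22, 1.44 and 1.73 in adapted/B6. The groups original/B6129SF1 and adapted/B6129SF1 therefore did not overlap in this average, while adapted/B6129SF1 and adapted/B6 did. The same average over the 9 chaperones was 0.21, -0.23 and 0.02 in original/B6129SF1, between -0.24 and -0.06 in adapted/B6129SF1, and between -0.06 and -0.01 in adapted/B6.

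**Figure D5:**
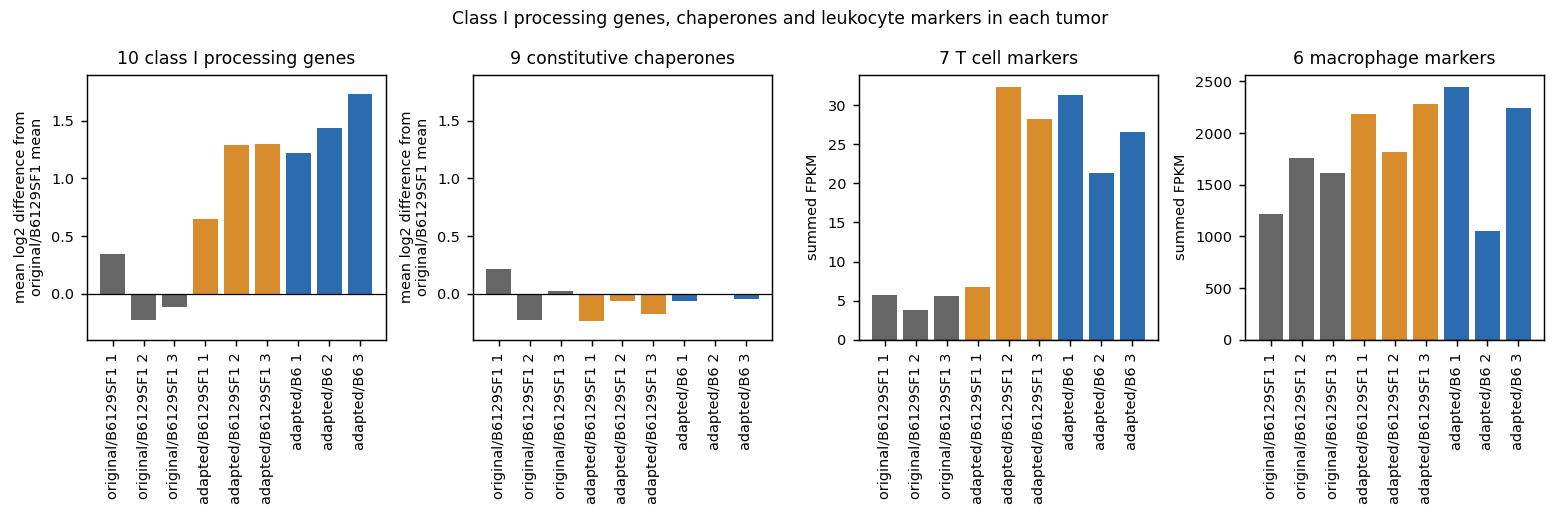
Average log2 difference from the original/B6129SF1 mean in each tumor, for the 10 inducible genes and for the 9 ER chaperones, and summed FPKM of the T cell and macrophage markers, with 1 bar per tumor. The inducible genes range from -0.23 in original/B6129SF1 replicate 2 to 1.73 in adapted/B6 replicate 3, and the chaperones from -0.24 to 0.21, while the T cell sum of adapted/B6129SF1 replicate 1 is 6.69 FPKM.

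Of the regulators of these genes reported here, Irf1 and Irf8 rose. Irf1, an interferon-induced transcription factor that acts on the promoters of Psmb9, Tap1 and other class I genes, was at 39.7, 30.3 and 30.6 FPKM in original/B6129SF1, 42.5, 67.4 and 54.4 FPKM in adapted/B6129SF1, and 84.8, 82.4 and 117 FPKM in adapted/B6. The 3 groups did not overlap. Of all genes, 13.6% lay wholly higher in adapted/B6129SF1 than in original/B6129SF1, and 6.32% wholly higher in adapted/B6 than in adapted/B6129SF1. Irf1 rose by 1.46 (adjusted p = 0.00527, limma) in adapted/B6, and its log2 fold change was 0.68 (adjusted p = 0.073, limma) in adapted/B6129SF1 and 0.79 (adjusted p = 0.538, limma) between adapted/B6 and adapted/B6129SF1. Irf8, a factor of myeloid cells, rose by 1.02 and 1.20 (adjusted p = 0.0109 and 0.00527, limma). Of 8 further regulators (Irf2, Rfx5, Rfxap, Rfxank, Nfya, Nfyb, Nfyc and Creb1), 0 passed after adjustment in limma in any comparison, with unadjusted p under 0.05 for Irf2 in both comparisons with original/B6129SF1, for Nfya and Rfx5 in adapted/B6 against original/B6129SF1, and for Rfxap in adapted/B6 against adapted/B6129SF1. The shares of all genes at that level were 26.5% and 24.4% against original/B6129SF1 in adapted/B6129SF1 and adapted/B6, and 6.27% between the adapted groups. Rfx5, which encodes a subunit of the RFX complex at class I promoters, differed from original/B6129SF1 by 0.23 in adapted/B6129SF1 and 0.37 in adapted/B6 (adjusted p = 0.308 and 0.133, limma).

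Transcripts of interferon-gamma itself were scarce. Ifng was at 0.216, 0.107 and 0.202 FPKM in original/B6129SF1, 0.158, 1.50 and 0.524 FPKM in adapted/B6129SF1, and 2.71, 1.45 and 2.72 FPKM in adapted/B6. Every adapted/B6 tumor was above every original/B6129SF1 tumor, and adapted/B6129SF1 replicate 1 was within the original/B6129SF1 range. Ifng reached 1 FPKM only in the adapted/B6 tumors and in adapted/B6129SF1 replicate 2. It therefore passed the filter only through tumors in which it was high, which favoured a call of a rise. Ifng rose by 1.46 (adjusted p = 0.023, limma) in adapted/B6, a call lost without any 1 of the original/B6129SF1 tumors, adapted/B6 replicate 1 or adapted/B6 replicate 3 (adjusted p up to 0.103), and its log2 fold change was 0.48 (adjusted p = 0.324, limma) in adapted/B6129SF1. None of the receptor and kinase genes Ifngr1, Ifngr2, Jak1 and Jak2 passed after adjustment in limma. Those with an unadjusted p under 0.05 were Ifngr1 in adapted/B6129SF1 against original/B6129SF1 and in adapted/B6 against adapted/B6129SF1, and Jak1 in adapted/B6 against original/B6129SF1, beside 26.5%, 6.27% and 24.4% of all genes in that order of comparisons.

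Immune cells also express the immunoproteasome and TAP. The sums of general leukocyte, T cell and dendritic cell markers were higher in every adapted tumor than in any original/B6129SF1 tumor. Those of natural killer cell markers in adapted/B6129SF1 and of macrophage markers in adapted/B6 overlapped the original/B6129SF1 range. The summed FPKM of 7 T cell markers was 3.80 to 5.74 in original/B6129SF1, 6.69, 32.3 and 28.2 in adapted/B6129SF1, and 21.3 to 31.3 in adapted/B6, and of the 7 Cd3g passed in both comparisons and Cd2 in adapted/B6, calls that were lost, among other alternatives, without any 1 of the original/B6129SF1 tumors (adjusted p up to 0.146, limma). All 7 had an unadjusted p under 0.05 in both comparisons, beside 26.5% and 24.4% of all genes. In adapted/B6129SF1 3 of the 7 lay wholly above original/B6129SF1, and in adapted/B6 all 7 did, beside 13.6% and 14.9% of all genes. Cd3d, Cd3e, Cd8b1 and Cd4 were below 1 FPKM in every original/B6129SF1 tumor, and Cd8a exceeded it only in replicate 1 (1.01 FPKM). These genes passed the filter only through adapted tumors, which favoured a rise, so their part of these counts is no support for one. The median log2 fold changes of the 7 T cell markers were 1.07 and 1.38. Adapted/B6129SF1 replicate 1, the lowest adapted tumor for each of the 10 genes, was also lowest of the adapted tumors for T cell markers. Its sum of dendritic cell markers was the highest of all 9 tumors, but was carried by Clec9a (6.15 FPKM). Its Batf3 (0.391 FPKM) was the lowest of the adapted tumors and its Flt3 (0.148 FPKM) the lowest of all 9. The lowest leukocyte sum of the adapted tumors was in adapted/B6 replicate 2. The sum of 5 general leukocyte markers was 277 to 307 FPKM in original/B6129SF1, 405 to 604 FPKM in adapted/B6129SF1, and 335 to 660.3 FPKM in adapted/B6. Of these 5, Cd52 passed in adapted/B6129SF1, a call lost under 11 of the 16 alternatives, among them without any 1 of the original/B6129SF1 tumors (adjusted p up to 0.132), and 0 passed in adapted/B6 by limma. At an unadjusted p under 0.05 there were 4 of the 5 in adapted/B6129SF1 and 3 in adapted/B6, beside 26.5% and 24.4% of all genes. The sum of 6 natural killer cell markers was 5.28 to 13.0, 11.7 to 28.9 and 25.7 to 35.0 FPKM in the 3 groups, and that of 5 dendritic cell markers was 1.33 to 2.09, 6.67 to 8.44 and 6.23 to 7.85 FPKM. By adjusted p (limma), 1 of the 4 natural killer genes tested rose in adapted/B6129SF1 and 2 in adapted/B6. Of the 3 dendritic cell genes tested, 1 and 2 rose, where 4.37% and 3.99% of all genes did. All 3 were below 1 FPKM in every original/B6129SF1 tumor and passed the filter only through adapted tumors. The filter itself thus favoured a rise, and these dendritic cell counts are no support for one. The natural killer and dendritic cell calls were not checked under the alternatives.

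Other cell types gave mixed values. The sum of 6 macrophage markers was 1213 to 1758 FPKM in original/B6129SF1, 1813 to 2277 FPKM in adapted/B6129SF1 and 1049 to 2444 FPKM in adapted/B6, where replicate 2 was the lowest of all 9 tumors. In that tumor the T cell, natural killer cell and dendritic cell sums were 21.3, 25.7 and 7.85 FPKM, each above every original/B6129SF1 tumor. Ptprc, the pan-leukocyte gene, was at 17.6 FPKM in the same tumor, within the original/B6129SF1 range of 11.6 to 18.8 FPKM. All 5 B cell markers were below 1 FPKM in every tumor, with a sum of at most 1.46 FPKM. The sum of 5 neutrophil markers was 23.2 to 30.0, 8.33 to 23.2 and 24.3 to 47.6 FPKM in the 3 groups, that of 5 endothelial markers 50.7 to 66.3, 51.4 to 80.5 and 61.7 to 74.7 FPKM, and that of 5 fibroblast markers 540.4 to 695, 662 to 956 and 729 to 856 FPKM. The sum of 6 epithelial markers, carried by Krt8 and Krt18, was 577 to 969.7 FPKM in original/B6129SF1, 265 to 547 FPKM in adapted/B6129SF1 and 370.2 to 423 FPKM in adapted/B6, and the log2 level of Krt8 fell by 1.32 in adapted/B6129SF1 and by 1.12 in adapted/B6 (adjusted p = 0.0189 and 0.0346, limma), calls lost under 5 and 8 of the 16 alternatives, among them without original/B6129SF1 replicate 1 or 3 (adjusted p up to 0.116). Of the 6, 6 had negative fold changes in adapted/B6129SF1 and 3 in adapted/B6, where Cdh1 differed by 0.36 (adjusted p = 0.438, limma). The part of these markers in the levels of the 10 genes was not tested.

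The genes nearest in pattern to the average of the set were sought over the 9 tumors, by the root mean square difference of log2(FPKM + 1) after each pattern was centred on its own mean. Tap2 (0.0693), Psmb10 (0.125) and Tapbp (0.172) were nearest among the 10, at places 1, 2 and 10 of the 10263 genes, and Psmb9 (0.36) was farthest, at place 166, although each of them contributes to the average itself. Of genes on no list, the nearest 5 were Ube2l6 (0.14), H2-T22 (0.145), Epsti1 (0.164), Sp110 (0.195) and Smpdl3b (0.201). Ube2l6 was at 26.1, 22.9 and 19.4 FPKM in original/B6129SF1, 37.8, 54.3 and 49.3 FPKM in adapted/B6129SF1, and 46.1, 64.3 and 76.5 FPKM in adapted/B6. Ube2l6 was picked by its likeness to the 10 genes in these same tumors. Its sharing of their low adapted/B6129SF1 replicate 1 and high adapted/B6 replicate 3 follows from that selection.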

How the data were processed

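RNA-seq of 9 tumors, 3 per group, was used. Reads (HiSeq2000, paired ends) were checked by the authors with FastQC and aligned with HISAT2 to mm10, and the FPKM they deposited came from Cuffnorm. Their gene annotation and Cuffnorm scaling are not given in the sources used here. Each column was tied to its sample by the label in that sample's description. FPKM are not counts, so limma 3.58.1 in R 4.3.3 was run on log2(FPKM + 1), which understates changes of low genes, over the 10263 genes that reached 1 FPKM in 3 or more tumors (lmFit on 3 group means, eBayes with a mean-variance trend, Benjamini-Hochberg adjustment over all genes tested). Ratios were compared by exact two-sided permutation tests. The procedure was tested on simulated data with independent noise for each gene and large shifts of well-expressed genes in adapted/B6 only. That test does not cover genes that vary together, tumors with muscle RNA or smaller shifts such as many of those given above. The absolute depth is unknown, and p-values measure the spread between 3 tumors per group, each labelled a biological replicate. No pair of tumors had identical values for more than 0.0487% of the genes tested.

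The thresholds for a DEG follow the study's methods. The genes and lists were chosen with earlier results of these data known. Genes named were the 10, any gene of the pathway and marker lists, and the 5 others nearest in pattern. The constitutive counterpart of Psmb8 and 1 macrophage marker were not analysed here, so 6 rather than 9 ratio tests were made. Alternatives were another pseudocount (0.1), no filter, median-of-ratios scaling, only the groups compared, a replicate block, no trend, adjusted p alone, and leaving out tumors singly or the 2 with muscle RNA. No sequences or coordinates were used, and 1 listed regulator is not reported here.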

Additional observations from a re-analysis of the deposited data

How the results depend on the processing

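The number of the 10 genes called DEGs in adapted/B6129SF1 against original/B6129SF1, 6 in the report, was 3 with only the groups compared, 2 with the replicate block, 1 without the 2 tumors with muscle RNA, and between 0 and 6 when each tumor was left out in turn. In adapted/B6 against original/B6129SF1, 7 in the report, it was 7 with the replicate block and between 3 and 8 when each tumor was left out. With no filter the numbers were 4 and 7. The chaperones called in adapted/B6129SF1 went from 0 to 1 (Prkcsh) by adjusted p alone. Over all genes, 330 and 317 DEGs became 242 and 245 with the replicate block, at least 141 (without original/B6129SF1 replicate 3) and 156 (without adapted/B6 replicate 3) when a tumor was left out, and the 3 DEGs between the adapted groups became 0 to 6. Without adapted/B6129SF1 replicate 1, 3 differences between adapted/B6 and adapted/B6129SF1 turned negative, namely Psmb8 (-0.00944, with a range to 0.529 over tumors left out), Psmb9 (-0.204, to 0.463) and the log2 ratio of Psmb9 to Psmb6 (-0.101, to 0.481). Whether replicate numbers pair the tumors was not tested. Deviations of same-numbered tumors correlated between -0.388 and 0.614. In adapted/B6 against original/B6129SF1 they were all positive (0.110, 0.304 and 0.0691). Both other comparisons held negative values, so not every tumor correlated best with its own number there. Against original/B6129SF1, the genes of the set with an adjusted p under 0.05 lost it in 44 of 128 values under the alternatives in adapted/B6129SF1 and in 23 of 160 in adapted/B6, with 0 changes of direction, and the cause was not tested. In adapted/B6, Psmb10, Psme1, Tapbp and Nlrc5 passed under every one of them. The same 16 alternatives, applied to further genes after seeing the data, lost Tapbpl 5 times, B2m 8, H2-K1 3 and H2-D1 1 time in adapted/B6129SF1, and in adapted/B6 H2-K1 2 times, B2m 1 time and Psme4, Tapbpl, Irf1 and Irf8 0 times. The 3 tumors per group limit what can be called, and low values such as those of Ifng rest on few fragments.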
